A study of Mus musculus with 170 samples.

Results

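Acod1, Nos2, Arg1, Arg2, Ass1, Ptgs2 and Gatm are 7 enzymes that activated macrophages use to make itaconate, nitric oxide, ornithine, prostaglandins and the precursor of creatine. They were taken by name from the 21450 gene symbols of a mouse lung and heart expression series and are described here in the 140 lung libraries. The assay was targeted sequencing (TempO-Seq), in which short probes report each gene. Arg1 and Gatm had 1 probe, Acod1, Nos2 and Ass1 had 2, and Arg2 and Ptgs2 had 3, and the counts of a gene's probes were summed. All 7 were among the 14458 genes with enough counts to test.

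Acod1 converts cis-aconitate, an intermediate of the citric acid cycle, into itaconate, and is strongly induced in macrophages by bacterial products. Nos2, the inducible nitric oxide synthase, splits arginine into nitric oxide and citrulline, and Ass1 catalyses the step that starts turning citrulline back into arginine. Arg1, which is cytosolic, and Arg2, which is mitochondrial, draw on the same arginine to make ornithine and urea. Gatm uses arginine to begin creatine synthesis, and Ptgs2 is the inducible cyclooxygenase that starts the prostaglandin pathway. In mice Nos2 is a textbook mark of macrophages activated by bacterial products and Arg1 of those exposed to type 2 cytokines, although whole lung holds other cells that can make these transcripts.

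Female CD1 mice received smoke condensate, lipopolysaccharide (LPS, a component of bacterial cell walls) or saline in the lungs, and lungs were taken 4 h or 24 h later. The 10 condensates came from eucalyptus, peat, pine, pine needles and red oak, each burnt in a flaming or a smoldering phase, and are called here peat flame, peat smolder and so on (PeatFlame and PeatSmolder in the labels). Each was given by oropharyngeal aspiration as 50 µL of saline holding 2 mg/mL of particulate matter. At each time there were 6 lungs for every smoke, 4 for LPS and 6 for saline. The labels used here name no engineered allele and give neither the LPS dose nor the age of the mice. The tissue was whole lung, so in every result that follows fewer or more cells of a type and less or more RNA per cell cannot be told apart.

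Over all 170 libraries of the series the total count was 4426180 to 8046021, with a median of 6587862. Of the 4 h lungs 65 of 70 were on plate 1 and of the 24 h lungs 53 of 70 were on plate 2, so time and plate largely go together, and the model carried a plate term. In 6 of the 24 h smoke lungs fewer than 13000 genes had a count, with as few as 9886 in 1 red oak flame lung. The lung was checked by surfactant and related alveolar type 2 markers, whose summed level was 2830 to 26500 CPM. The summed level of 12 alveolar macrophage markers ranged from 46.8 to 4870 CPM (a gene's count scaled to its library's total, with the edgeR factors) with a median of 1000 CPM over the 140 lungs.

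The positions of the members were taken from GENCODE M21 on the GRCm38 build of the mouse genome. Acod1 spans 103046977 to 103056573 of chromosome 14, Nos2 78920787 to 78960254 of chromosome 11, and Arg2 79130777 to 79156301 of chromosome 12, all on the plus strand. Ass1 at 31470207 to 31520672 of chromosome 2 and Ptgs2 at 150100031 to 150108227 of chromosome 1 also lie on the plus strand. Arg1 at 24915221 to 24927484 of chromosome 10 and Gatm at 122594467 to 122611303 of chromosome 2 lie on the minus strand. All 7 are annotated as protein-coding.

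Promoter windows of 300 bases, from 250 bases before to 50 bases after the gene's RefSeq start, were matched for 4 of the 7 members in the RefSeq set on GRCm38.p6. All 4 matched windows are shown. Under LPS these genes took different courses: Acod1 was called at both times, Ass1 and Gatm at 24 h, and Ptgs2 at neither. Whether the motifs go with these courses was not tested. Capitals mark matches to the motifs searched. Each window is printed 5′ to 3′ on the strand of its gene, at chr14:103046762-103047061 for Acod1, chr1:150099781-150100080 for Ptgs2 and chr2:31470020-31470319 for Ass1 (plus strand), and at chr2:122611228-122611527 for Gatm (minus strand). The RefSeq start lies at the GENCODE start given above for Ptgs2 and differs from it for Acod1, Ass1 and Gatm, so distances hold for the RefSeq start.
Acod1: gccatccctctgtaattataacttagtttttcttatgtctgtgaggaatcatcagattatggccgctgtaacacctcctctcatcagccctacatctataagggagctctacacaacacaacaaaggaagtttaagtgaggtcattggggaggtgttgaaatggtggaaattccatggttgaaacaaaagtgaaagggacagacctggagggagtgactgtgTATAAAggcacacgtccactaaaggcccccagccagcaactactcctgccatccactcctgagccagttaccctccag
Ptgs2: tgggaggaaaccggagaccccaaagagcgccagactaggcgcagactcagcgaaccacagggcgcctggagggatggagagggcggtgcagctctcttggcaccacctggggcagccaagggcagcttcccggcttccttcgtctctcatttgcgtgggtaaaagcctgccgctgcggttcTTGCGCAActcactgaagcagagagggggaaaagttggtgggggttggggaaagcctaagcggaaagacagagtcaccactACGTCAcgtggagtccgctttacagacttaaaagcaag
Ass1: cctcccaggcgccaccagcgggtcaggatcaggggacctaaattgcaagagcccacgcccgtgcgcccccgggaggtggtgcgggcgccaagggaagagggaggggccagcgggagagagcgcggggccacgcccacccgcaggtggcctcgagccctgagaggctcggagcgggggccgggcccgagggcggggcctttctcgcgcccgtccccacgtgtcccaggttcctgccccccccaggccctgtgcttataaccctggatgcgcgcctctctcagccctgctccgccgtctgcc
Gatm: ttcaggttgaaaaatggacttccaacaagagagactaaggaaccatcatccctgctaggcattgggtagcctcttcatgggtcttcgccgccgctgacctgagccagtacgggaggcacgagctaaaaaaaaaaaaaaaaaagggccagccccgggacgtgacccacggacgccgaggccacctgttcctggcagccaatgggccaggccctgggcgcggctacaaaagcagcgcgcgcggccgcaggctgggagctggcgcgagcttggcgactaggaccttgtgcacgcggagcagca

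The search covered 6 motifs on both strands, where N stands for any base: an NF-kB motif (GGGNNTTCC), an AP-1 motif (TGANTCA), a cyclic AMP response element (TGACGT), a C/EBP motif (TTGCNNAA), an interferon response motif (GAAANNGAA) and a TATA box (TATAAA). The Acod1 window held a TATA box 28 bases before the RefSeq start, a motif found in 13.6% of the 32851 windows of that length. The Ptgs2 window held a C/EBP match, TTGCGCAA, 69 bases before its RefSeq start and a cyclic AMP response element, read on the opposite strand as ACGTCA, 12 bases after it, and no 2 of these matches overlap. Those motifs occur in 10.8% and 7.51% of all windows. The NF-kB, AP-1 and interferon motifs as spelled above, present in 5.82%, 7.81% and 8.56% of windows, were in none of the 4. The Ass1 and Gatm windows held none of the 6. Sites of another length or spelling were not searched for, so a window without a match can still hold a site for these factors. A match describes letters in a short window and says nothing of whether a factor binds there.

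At 4 h 2 of the 7 members rose under LPS, Acod1 by about 314-fold and Arg2 by 6.61-fold, while Nos2, Arg1, Ass1, Ptgs2 and Gatm did not pass the test. At 24 h 6 of the 7 rose, that is every member but Ptgs2. A gene was called when its Benjamini-Hochberg adjusted p over all 14458 genes was under 0.05 in edgeR's quasi-likelihood test. At 4 h 8.98% of all genes were called under LPS and 5.48% were called higher, and at 24 h 12.1% were called and 7.58% were called higher.

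Acod1, the itaconate-making enzyme, had 347, 421, 449 and 666 CPM in the 4 LPS lungs at 4 h, against 0.514 to 2.95 CPM with a median of 1.01 CPM in the 6 saline lungs. At 24 h it had 1400, 1520, 1940 and 4560 CPM in LPS lungs, against 0.737 to 2.25 CPM with a median of 1.45 CPM in saline lungs. Every LPS lung stood far above every saline lung at both times, a separation that at 24 h held for 7.38% of all genes. The share at 4 h is not given here. In CPM, which carry no plate term, the LPS lungs of 24 h all lay above those of 4 h. All LPS lungs of 4 h were on plate 1, and 3 of the 4 LPS lungs of 24 h were on plate 2. The log2 change was 8.30 (SE 1.19, adjusted p = 2.79e-08) at 4 h and 10.67 (SE 1.29, adjusted p = 3.66e-11) at 24 h, with saline levels so low that the ratio is loosely set. The change at 24 h minus that at 4 h was 2.37 with a 95% interval from -0.58 to 5.33, which did not pass the test (adjusted p = 0.747).

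Arg2, the mitochondrial arginase, had 80.2, 87.1, 131.1 and 133.1 CPM in LPS lungs at 4 h, against 11.4 to 24.4 CPM with a median of 16.1 CPM in saline lungs. It had, at 24 h, 51.8 CPM in its lowest LPS lung, a median of 91.3 CPM and 123.5 CPM in its highest, against 7.37 to 14.8 CPM with a median of 11.4 CPM in saline lungs. All LPS lungs were above all saline lungs at either time, a separation that at 24 h held for 7.38% of all genes and whose share at 4 h is not given here. The log2 change was 2.73 (SE 0.32, adjusted p = 3.2e-11) at 4 h and 2.99 (SE 0.33, adjusted p = 4.66e-13) at 24 h. The difference between the times was 0.27, with an interval from -0.64 to 1.17.

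Nos2, the nitric oxide synthase, changed at 24 h. At 4 h it had 5.08, 10.6, 16.1 and 19.3 CPM in LPS lungs, against 4.04 to 28.1 CPM with a median of 6.46 CPM in saline lungs, and all LPS lungs lay within the saline range. The top of that range was saline replicate 1, and the next saline lung had 12.3 CPM, below the LPS lungs at 16.1 and 19.3 CPM. Without that replicate the 4 h log2 change was 0.92 and still not called. At 24 h Nos2 had 294, 309, 346 and 1500 CPM in LPS lungs, against 10.8 to 21.5 CPM with a median of 15.3 CPM in saline lungs, and every LPS lung was far above every saline lung. The log2 change was 0.32 (SE 0.45, adjusted p = 0.788) at 4 h and 5.29 (SE 0.49, adjusted p = 1.15e-16) at 24 h. The difference between these effects, 4.97 (SE 0.67), was itself called (adjusted p = 1.04e-07), in an interaction test that called 0.581% of all genes and 3 of the 7 members. Without LPS replicate 2 of 24 h, the lung at 1500 CPM, that test called 19 genes where all libraries gave 84, and Nos2 remained called at 4.06. Of the genes called, 75% were higher at 24 h with the scaling used, and 63.4% with DESeq2's size factors, which moved the median of all genes by -0.11 on the log2 scale.

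**Figure D1:**
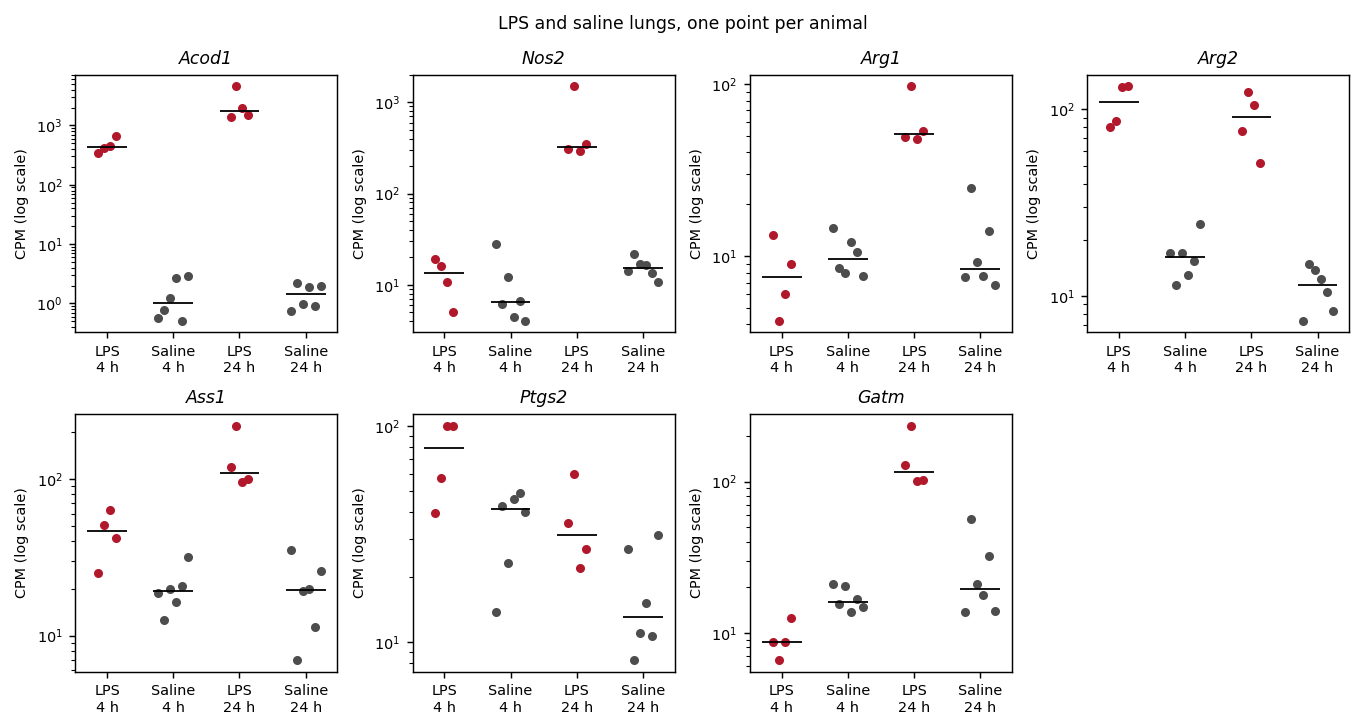
CPM of each member in LPS and saline lungs at 4 h and 24 h on a log axis, 1 point per animal, with a line at the group median. Acod1 and Arg2 in LPS lungs stand clear above saline lungs at both times, whereas Nos2, Arg1, Ass1 and Gatm do so at 24 h.

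Arg1, the cytosolic arginase, had 4.21, 5.98, 9.03 and 13.3 CPM in LPS lungs at 4 h, against 7.62 to 14.5 CPM with a median of 9.6 CPM in saline lungs. At 24 h it had 47.6, 49.3, 53.3 and 96.8 CPM in LPS lungs, against 6.77 to 24.8 CPM with a median of 8.41 CPM in saline lungs. The groups overlapped at 4 h and were apart at 24 h, with all LPS lungs higher. The log2 change was -0.33 (SE 0.43, adjusted p = 0.756) at 4 h and 2.42 (SE 0.41, adjusted p = 2.14e-06) at 24 h. Their difference of 2.75 was called (adjusted p = 0.00822), but without LPS replicate 2 of 24 h it was 2.44 with an adjusted p of 0.0636.

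Gatm, which begins creatine synthesis, had 6.61, 8.64, 8.7 and 12.6 CPM in LPS lungs at 4 h, against 13.7 to 21 CPM with a median of 16 CPM in saline lungs. All 4 LPS lungs lay below all 6 saline lungs, as was the case for 3.8% of all genes, but the log2 change of -0.90 (SE 0.42) was not called (adjusted p = 0.202). At 24 h the order was the opposite, with 101.2, 102.2, 128.9 and 234 CPM in LPS lungs, against 13.7 to 56.3 CPM with a median of 19.4 CPM in saline lungs. The log2 change of 2.56 at 24 h (SE 0.40, adjusted p = 2.43e-07) exceeded the 4 h value by 3.46 (SE 0.59, adjusted p = 0.000123).

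Ass1, the citrulline-recycling enzyme, had 25.3, 42.3, 50.5 and 63.1 CPM in LPS lungs at 4 h, against 12.6 to 32 CPM with a median of 19.3 CPM in saline lungs. At 24 h it had 95.2, 99.8, 119.2 and 219 CPM in LPS lungs, against 7 to 35.1 CPM with a median of 19.6 CPM in saline lungs. In 3 of 4 LPS lungs at 4 h and in all 4 at 24 h the level was above every saline lung. The log2 change was 1.18 (SE 0.44, adjusted p = 0.0751) at 4 h and 2.76 (SE 0.44, adjusted p = 4.87e-07) at 24 h. The 4 h value was called when the 4 h libraries were fitted alone (1.19, adjusted p = 0.000821), on plate 1 alone (adjusted p = 0.00119) and when lungs of few detected genes were left out (adjusted p = 0.0109). The lungs of few detected genes were all of 24 h, so that fit left out no 4 h lung. The 4 h value was also called without saline replicate 6 (adjusted p = 0.0433) or without LPS replicate 1 (adjusted p = 0.0429).

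Ptgs2, the inducible cyclooxygenase, had 39.3, 57.2, 99.9 and 100.2 CPM in LPS lungs at 4 h, against 13.8 to 48.7 CPM with a median of 41 CPM in saline lungs. At 24 h it had 21.9, 27, 35.4 and 59.9 CPM in LPS lungs, against 8.25 to 31.3 CPM with a median of 13.1 CPM in saline lungs. The groups overlapped at both times, although 3 LPS lungs at 4 h and 2 at 24 h exceeded every saline lung. The log2 change was 1.06 at 4 h (interval -0.01 to 2.13, adjusted p = 0.257) and 1.06 at 24 h (interval -0.02 to 2.15, adjusted p = 0.225). In a fit of the 4 h libraries alone the 4 h value was called (1.07, adjusted p = 0.0361), and likewise on plate 1 alone (adjusted p = 0.0349).

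Across the 7 members the median log2 change under LPS was 1.06 at 4 h and 2.76 at 24 h, beside -0.04 and -0.12 over all genes tested. At 24 h the 6 members called each had all 4 LPS lungs above all 6 saline lungs, which held for 7.38% of all genes. LPS replicate 2 was the highest LPS lung of 24 h for all 7 members. Without it the log2 changes at 24 h were 10.06 for Acod1, 4.38 for Nos2, 2.11 for Arg1, 2.78 for Arg2, 2.39 for Ass1 and 2.31 for Gatm, and all 6 remained called.

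**Figure D2:**
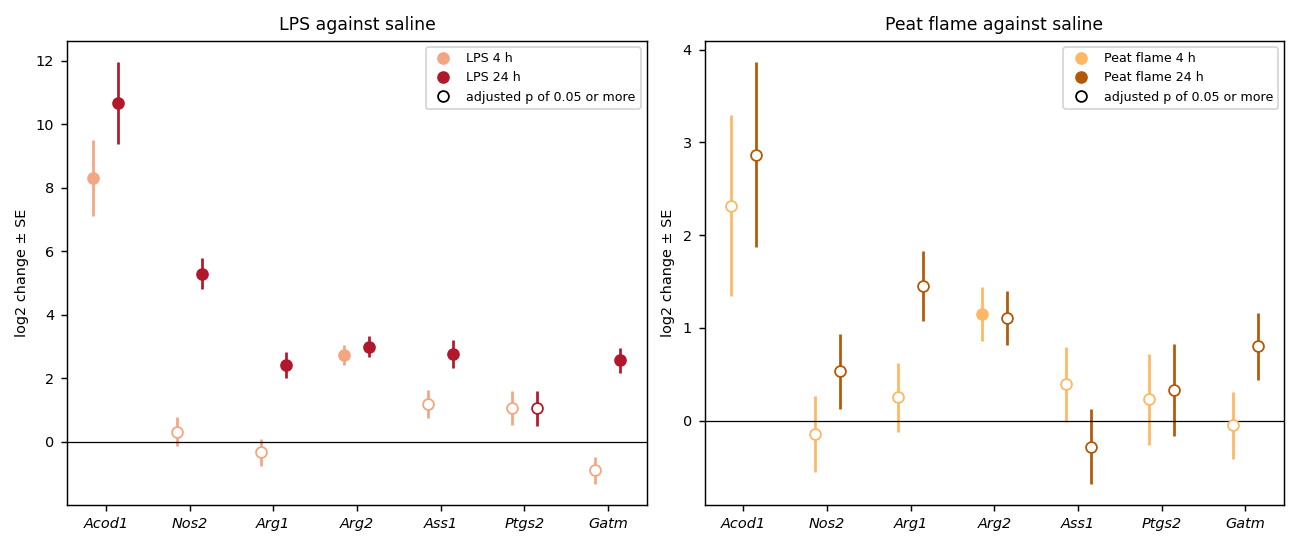
log2 change ± SE from the edgeR fit for the 7 members, for LPS against saline and for peat flame against saline, at 4 h and 24 h, with points filled where the adjusted p was under 0.05. Under LPS 2 points are filled at 4 h and 6 at 24 h, and under peat flame the Arg2 point at 4 h is the single filled one.

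The single probes of a gene can be set beside each other. Arg2 was read by its probes 2 and 3, while probe 1 had no count in any LPS or saline lung. Probe 2 averaged 371 counts in LPS lungs and 56.8 in saline lungs at 4 h, and 329 in LPS lungs and 48 in saline lungs at 24 h. Probe 3 averaged 266 counts in LPS lungs and 42.7 in saline lungs at 4 h, and 70.2 in LPS lungs and 16.8 in saline lungs at 24 h. Both rose at either time, with log2 changes of 2.71 and 2.70 at 4 h and 3.13 and 2.46 at 24 h. Probe 3 made up 41.8% of the Arg2 counts in LPS and 42.9% in saline lungs at 4 h, and 17.6% in LPS and 26% in saline lungs at 24 h. The Nos2 probes gave log2 changes of 5.04 and 5.31 at 24 h, and the Acod1 probes 8.08 and 8.28 at 4 h. The 3 Ptgs2 probes gave changes between 0.67 and 1.25 over both times, and none was called.

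**Figure D3:**
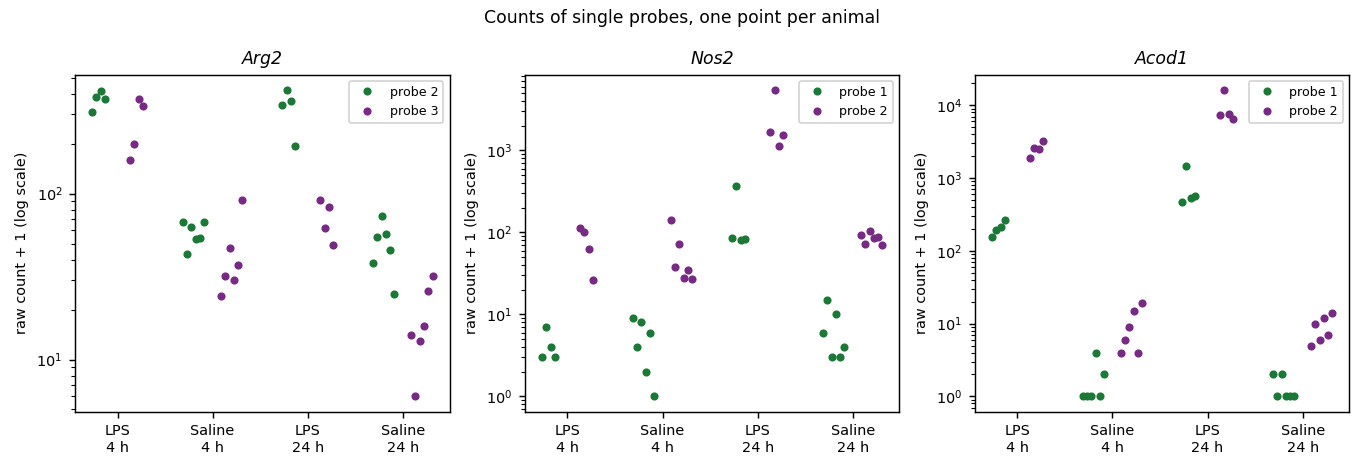
Raw counts plus 1 of single probes of Arg2, Nos2 and Acod1 on a log axis in LPS and saline lungs at 4 h and 24 h, 1 point per animal. Both probes of each gene separate the same groups, and at 24 h Arg2 probe 3 lies further below probe 2 than at 4 h.

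The enzymes and regulators that surround the members were read from lists of pathway genes. Over all genes 8.98% were called under LPS at 4 h and 12.1% at 24 h, and 5.48% and 7.58% were called higher. The citric acid cycle list also holds cytosolic forms of its enzymes and a citrate carrier. Of its 19 tested genes, 0 rose and 0 fell under LPS in edgeR at 4 h, and the same counts held at 24 h. At an unadjusted p under 0.05 there were 2 at 4 h and 1 at 24 h, and DESeq2 called 1 (Idh2, an isocitrate dehydrogenase, lower) at 4 h and 0 at 24 h. Of 18 genes of nitric oxide signalling, its cofactor and arginine supply, 2 rose and 2 fell at 4 h, and 4 rose and 3 fell at 24 h. Gch1, which begins synthesis of the nitric oxide synthase cofactor tetrahydrobiopterin, averaged 90.8 ± 13.7 CPM in LPS lungs (SD) and 18.1 ± 2.47 CPM in saline lungs at 4 h, a log2 change of 2.33 (adjusted p = 7.54e-09), and it rose by 1.65 at 24 h. Slc7a2, an arginine importer, averaged 251 ± 71.7 CPM in LPS lungs and 58 ± 16.8 CPM in saline lungs at 24 h, a change of 2.12 (adjusted p = 8.33e-11), beside 1.15 at 4 h.

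Genes of the same list also fell. Gchfr, a feedback regulator of Gch1, fell by 2.56 on the log2 scale at 24 h, with all 4 LPS lungs below all saline lungs. Nos3, the endothelial nitric oxide synthase, averaged 39.5 ± 9.01 CPM in LPS lungs and 79 ± 31 CPM in saline lungs at 24 h, a change of -0.99. Gucy1a1, a subunit of the nitric oxide receptor, fell by 1.08 at 4 h and by 1.28 at 24 h, and Gucy1b1, its partner, fell by 1.32 at 4 h.

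Downstream of arginase, 2 of 16 genes of ornithine, polyamine, proline and creatine metabolism rose at 4 h and 1 rose at 24 h. Over all genes 5.48% and 7.58% were called higher, so the count at 24 h was near the background. The median log2 change of this list was -0.21 at 4 h and -0.02 at 24 h, beside -0.04 and -0.12 over all genes. Odc1, which turns ornithine into putrescine, averaged 76 ± 17.3 CPM in LPS lungs and 29 ± 3.24 CPM in saline lungs at 4 h, a change of 1.39 (adjusted p = 0.0378). Srm, the spermidine synthase, rose by 1.19 at 4 h and 1.26 at 24 h. Among 20 prostaglandin and eicosanoid genes, 2 rose and 1 fell at 4 h, and 4 rose and 2 fell at 24 h. Ptges, which makes prostaglandin E from a product of Ptgs2, rose by 2.11 at 4 h and 2.22 at 24 h, and Alox5ap, needed for leukotriene synthesis, by 1.15 and 1.30. Tbxa2r, the thromboxane receptor, fell by 1.77 at 4 h and by 1.42 at 24 h.

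Of 14 transcription factors known to act on the members, 7 rose at 4 h and 8 at 24 h. Irf1, an interferon-responsive factor, rose by 2.35 at 4 h and 3.45 at 24 h, and Nfkb1, an NF-kB subunit, by 1.10 and 0.99. Of 11 genes of classical macrophage activation 9 rose at each time, among them the cytokine gene Tnf by 4.34 at 4 h and 6.01 at 24 h. Of 10 genes of alternative activation 3 rose at 4 h (Ccl17, Ccl22 and Il4ra) and 2 at 24 h (Ccl22 and Egr2).

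The summed markers of recruited cells were higher under LPS at both times. Among the 7 members 2 were called higher at 4 h and 6 at 24 h. The summed level of 11 neutrophil markers was 855 to 2090 CPM in LPS lungs and 193 to 538 CPM in saline lungs at 4 h, and 1340 to 2110 CPM in LPS lungs and 137.8 to 289 CPM in saline lungs at 24 h, and 9 of the 11 rose at each time. The sum of 9 monocyte markers was 1450 to 2240 CPM in LPS lungs and 472 to 1080 CPM in saline lungs at 4 h, and 3730 to 7200 CPM in LPS lungs and 637 to 1650 CPM in saline lungs at 24 h, and of 8 tested 4 rose at 4 h and 6 at 24 h. The sum of the alveolar macrophage markers overlapped between groups, at 547 to 4280 CPM in LPS lungs and 421 to 3330 CPM in saline lungs at 4 h, and 739 to 1350 CPM in LPS lungs and 490.1 to 1680 CPM in saline lungs at 24 h. Of 11 tested, 0 were called at 4 h by edgeR, with 0 at an unadjusted p under 0.05 and 0 by DESeq2. At 24 h Marco, a scavenger receptor, rose by 4.39 and Fabp1, a fatty acid binding protein, fell by 3.62. All 3 club cell markers and 4 of 6 cardiac muscle markers fell at 24 h, and 3 of 5 pancreatic acinar markers rose at 4 h, where their sum was 5.56 to 18.9 CPM in LPS lungs and 0.574 to 4.46 CPM in saline lungs. The part of these shifts in the members' changes was not tested.

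Under the smokes few member tests passed. At 4 h 1 of 70 tests (7 members in 10 smokes) was called, Arg2 under peat flame, and 4 had an unadjusted p under 0.05. Over all genes 0.0456% of such tests were called and 5.05% had an unadjusted p under 0.05, so at the looser level the members' share was near the background. At 24 h 0 of 70 tests were called by edgeR and 11 had an unadjusted p under 0.05, where 0.187% of tests over all genes were called and 7.26% had an unadjusted p under 0.05. Of the 270 calls behind that 0.187%, 253 came from red oak flame, the group that holds the lung with 9886 detected genes. DESeq2 called 1 of 70 at 4 h and 1 of 70 at 24 h, the call at 24 h being Arg1 under peat flame (log2 change 1.47, adjusted p = 0.0271). The 10 comparisons of a time share the same 6 saline lungs.

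Arg2 under peat flame at 4 h had 20.2 CPM in its lowest lung, a median of 30.3 CPM and 76.9 CPM in its highest, against 11.4, 16.1 and 24.4 CPM in saline lungs. The groups overlapped, with 3 of 6 peat flame lungs above every saline lung. The log2 change was 1.15 (SE 0.29, adjusted p = 0.0433), in a comparison where 0.297% of genes were called. The call was lost in 8 of 12 fits that left out 1 lung, and without peat flame replicate 3, the lung at 76.9 CPM, the change was 0.79 with an adjusted p of 0.666. Among the 10 smokes the median Arg2 level at 4 h was 16.4 to 30.3 CPM, with peat flame highest. Of the genes on the pathway lists, Atf4, a stress-responsive transcription factor, was called under peat flame at 4 h in edgeR (0.49, adjusted p = 0.0156), whereas DESeq2 called Cebpd, Srm and Ccl17 and not Atf4.

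Acod1 scattered widely between animals in smoke lungs. At 4 h the 60 smoke lungs had 0 to 27.3 CPM with a median of 2.05 CPM, and 24 of them lay above every saline lung and 8 below. The highest group medians were 4.31 CPM in red oak flame, 3.61 CPM in eucalyptus flame and 3.58 CPM in pine flame, and the lowest was 0.573 CPM in red oak smolder. Red oak flame had a log2 change of 2.52 (SE 0.98, unadjusted p = 0.0112, adjusted p = 0.876) and peat flame one of 2.32 (SE 0.98, unadjusted p = 0.0193, adjusted p = 0.717). At both times every smoke lung lay below every LPS lung in Acod1 and in Arg2, and the same held for Gatm, Nos2 and Ass1 at 24 h. The share of all genes with this separation was not counted for the smokes together. For peat flame alone at 4 h it was 5.14%.

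The other members spread over the saline range and beyond it in the 60 smoke lungs of each time. Nos2, the nitric oxide synthase, ranged over 3.31 to 18.5 CPM at 4 h and 3.61 to 37.6 CPM at 24 h, with medians of 7.85 and 11.9 CPM. Ass1, the citrulline-recycling enzyme, ranged over 7.18 to 43.3 CPM at 4 h and 0 to 38.7 CPM at 24 h, with medians of 25 and 20.9 CPM. Ptgs2, the cyclooxygenase, ranged over 7.03 to 92 CPM at 4 h and 0 to 58.5 CPM at 24 h, with medians of 34.4 and 24.8 CPM. The groups' medians of Nos2 at 24 h lay between 8.32 and 24.5 CPM, those of Ass1 between 14.1 and 25.9 CPM and those of Ptgs2 between 14.2 and 40.7 CPM. Of the 60 smoke lungs at 24 h, 11 were above and 27 below every saline lung in Nos2, 4 above and 5 below in Ass1, and 20 above and 6 below in Ptgs2.

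At 24 h Acod1, Nos2, Arg1 and Arg2 had their highest median among the 10 smokes under peat flame. Acod1 had 2.28 CPM in its lowest peat flame lung, a median of 10 CPM and 20.8 CPM in its highest, against 0.737, 1.45 and 2.25 CPM in saline lungs. The groups did not overlap, which held in this direction for 0.111% of all genes, but the log2 change of 2.87 (SE 1.0, unadjusted p = 0.00471) was not called (adjusted p = 0.559). Arg1 had 13.5 CPM in its lowest lung, a median of 24.2 CPM and 80.5 CPM in its highest, against 6.77, 8.41 and 24.8 CPM in saline lungs, with 2 of 6 lungs above every saline lung. Its change was 1.45 (SE 0.38, unadjusted p = 0.000193, adjusted p = 0.151). In edgeR it was called without saline replicate 2 (1.82, adjusted p = 0.0316). It was not called in the 5 fits that left out another saline lung, with an adjusted p of up to 0.59. Fits without single peat flame lungs of 24 h, such as the lung at 80.5 CPM, were not run.

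Arg2 at 24 h had 13.7 CPM in its lowest peat flame lung, a median of 25.2 CPM and 29.4 CPM in its highest, against 7.37, 11.4 and 14.8 CPM in saline lungs, with 5 of 6 peat flame lungs above every saline lung. Its change was 1.11 (SE 0.29, unadjusted p = 0.00026, adjusted p = 0.179). Gatm had 21, 32.3 and 90.6 CPM in its lowest, median and highest peat flame lung, against 13.7, 19.4 and 56.3 CPM in saline lungs, and a change of 0.80 (SE 0.36, adjusted p = 0.667). Without the libraries of few detected genes, among them the peat flame lung at 90.6 CPM, the Gatm change was 0.48 with an unadjusted p of 0.152, while Acod1 (2.80), Arg1 (1.53) and Arg2 (1.04) still had an unadjusted p under 0.05. Nos2 at 0.53, Ptgs2 at 0.33 and Ass1 at -0.28 had intervals that included 0. In this comparison 0.0692% of genes were called and 7.18% had an unadjusted p under 0.05, and 4 of the 7 members, Gatm included, passed at that looser level with all libraries.

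The peat flame change at 24 h minus that at 4 h was not called for any member in edgeR, where 0.0622% of genes were called, 4.82% of all genes had an unadjusted p under 0.05 and 1 member did, and DESeq2 called 0 members. That member was Arg1, with a difference of 1.20 (SE 0.53, adjusted p = 0.949). On plate 2 alone, which holds 5 of the 6 peat flame lungs of 24 h, the changes were 2.90 for Acod1, 1.52 for Arg1, 1.06 for Arg2 and 0.71 for Gatm. The sum of the neutrophil markers was 153 to 397 CPM in peat flame lungs and 137.8 to 289 CPM in saline lungs at 24 h. Of its 11 members 3 had an unadjusted p under 0.05, and 0 were called by edgeR and 0 by DESeq2. Their median log2 change was 0.81 and that of the 11 alveolar macrophage markers tested -0.82, beside -0.05 over all genes. The sum of the alveolar macrophage markers was 231 to 1190 CPM in peat flame lungs and 490.1 to 1680 CPM in saline lungs, and 1 of them had an unadjusted p under 0.05, with 0 called by edgeR and 0 by DESeq2. At 4 h the median changes under peat flame were 0.69 for the neutrophil and -0.55 for the alveolar macrophage markers. The part of these cells in the peat flame values was not tested.

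**Figure D4:**
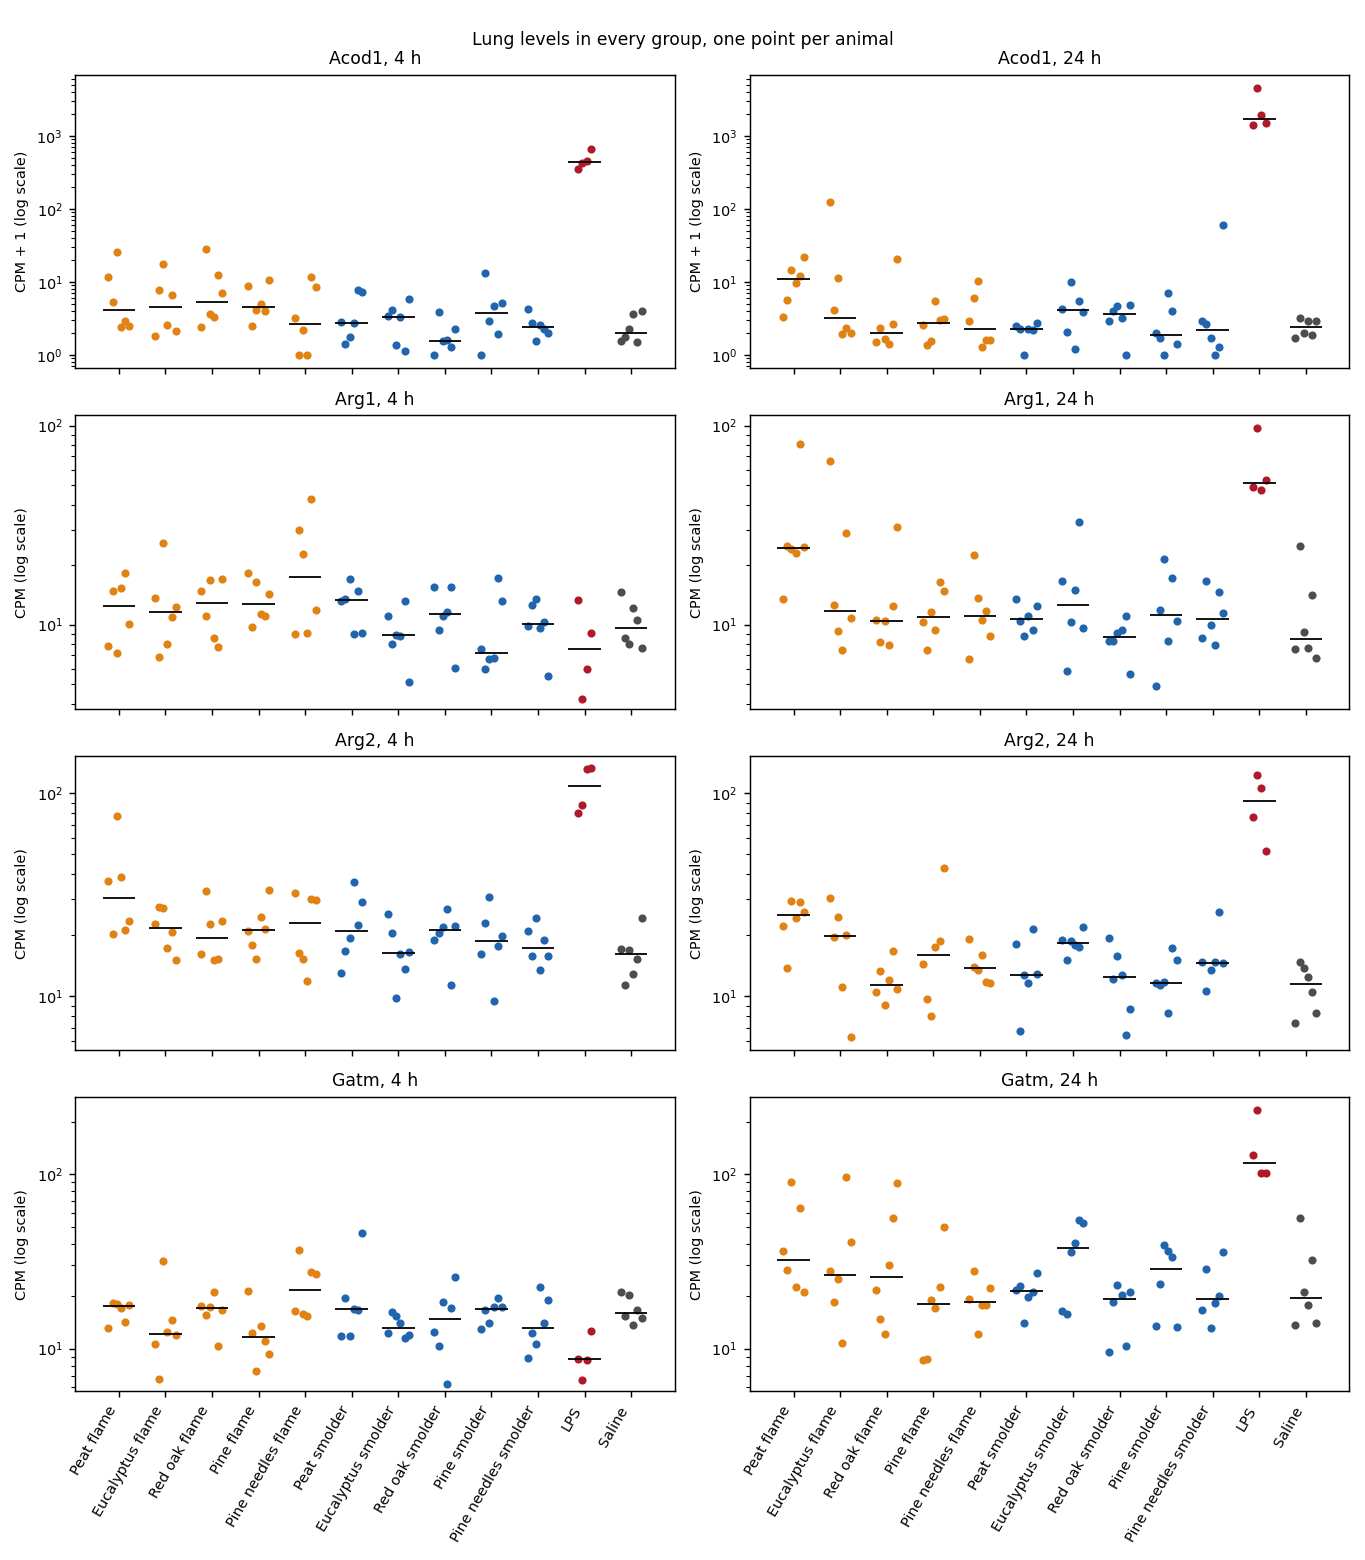
CPM of Acod1 (plus 1), Arg1, Arg2 and Gatm in all 24 lung groups at 4 h and 24 h on log axes, 1 point per animal, with a line at the group median. Orange marks flaming and blue smoldering smokes, red LPS and grey saline. Single animals stand out, such as the eucalyptus flame lung at 124.8 CPM of Acod1, and the peat flame medians of Acod1, Arg1 and Arg2 are the highest among the smokes at 24 h.

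The leading values of eucalyptus flame at 24 h came from 1 animal. Acod1 had 0.946 CPM in its lowest lung, a median of 2.21 CPM and 124.8 CPM in its highest, against 0.737, 1.45 and 2.25 CPM in saline lungs. Its fitted log2 change was 3.69 (SE 1.08, unadjusted p = 0.000858, adjusted p = 0.388). The lung at 124.8 CPM, replicate 1, was also the highest of its group in Arg1 (66.6 CPM, where the group's median was 11.6 CPM) and in Arg2 (30.6 CPM). It was the only eucalyptus flame lung of 24 h on plate 1, and on plate 2 alone the changes were 1.08 for Acod1, 0.15 for Arg1 and 0.46 for Arg2.

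Other smokes held scattered values of this kind. Pine needles smolder at 24 h had 58.9 CPM of Acod1 in 1 lung and a group median of 1.17 CPM, and that lung was also the highest of its group in Nos2 (37.6 CPM). Arg2 under eucalyptus smolder at 24 h had 15.1 to 21.9 CPM, against 7.37 to 14.8 CPM in saline lungs, without overlap, a separation seen in 0.0553% of genes, and its log2 change was 0.71 (adjusted p = 0.865). Ptgs2 under red oak smolder at 24 h had 19.8 to 53.4 CPM with a median of 40.7 CPM, 5 of 6 lungs above every saline lung, and a change of 1.17 (adjusted p = 0.374). Arg1 under pine needles flame at 4 h had 8.99 to 42.5 CPM with a median of 17.3 CPM, against 7.62 to 14.5 CPM in saline lungs, and a change of 1.02 (SE 0.38, adjusted p = 0.346).

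For the mean of the 10 smokes against saline, no member was called at either time by edgeR or by DESeq2, in comparisons that called 0% of genes at 4 h and 0.00692% at 24 h. At 4 h 0 of the 7 had an unadjusted p under 0.05, where 5.28% of all genes did, and at 24 h 1 did, where 3.56% of all genes did. That member was Arg2, with a log2 change of 0.47 (interval 0.02 to 0.92). The changes of Nos2 were -0.19 (interval -0.79 to 0.40) at 4 h and -0.15 (interval -0.74 to 0.44) at 24 h.

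Burning phase could be compared without the saline lungs. At 4 h no member was called in edgeR between the 30 flaming and the 30 smoldering lungs, where 2.39% of genes were, and DESeq2 called 0. Acod1 averaged 5.97 ± 6.78 CPM in flaming and 2.31 ± 2.62 CPM in smoldering lungs (SD), a log2 change of 1.37 (SE 0.43, unadjusted p = 0.00199, adjusted p = 0.065). Arg1 had a change of 0.42 (adjusted p = 0.153) and Arg2 one of 0.29 (adjusted p = 0.205), and 3 of the 7 had an unadjusted p under 0.05, where 19.2% of all genes did. The Acod1 change was called without the plate term (1.44, adjusted p = 0.0406). It was also called without the libraries of few detected genes (1.37, adjusted p = 0.0275), which are all 24 h lungs. That fit left out no 4 h lung. On plate 1 alone the Acod1 change was 1.22 and was not called (adjusted p = 0.0971).

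Around the members, 2 of 18 nitric oxide and arginine supply genes and 1 of 16 genes downstream of arginase were called between phases at 4 h. So were 1 of 20 eicosanoid genes and 1 of 11 classical activation genes. Every one of these called genes was higher in flaming lungs. Over all genes 2.39% were called, and 71.9% of those calls were higher in flaming lungs. The calls were 0 of 19 genes on the citric acid cycle list, 0 of 14 transcription factors and 0 of 10 alternative activation genes. Srm averaged 3.64 ± 1.38 CPM in flaming and 2.13 ± 0.872 CPM in smoldering lungs, a change of 0.76 (adjusted p = 0.00476). Slc7a1, an arginine importer, rose by 0.61 and Gchfr by 0.59, while Ptgs1, the constitutive cyclooxygenase, rose by 0.45 and Socs3, a brake on cytokine signals, by 0.69.

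At 24 h no member was called between phases in edgeR, where 0.111% of genes were, and DESeq2 called 0. Arg1 averaged 18.3 ± 16.6 CPM in flaming and 11.7 ± 5.41 CPM in smoldering lungs, a change of 0.54 (SE 0.17, unadjusted p = 0.00183, adjusted p = 0.336). Acod1 averaged 8.52 ± 22.7 CPM in flaming and 3.91 ± 10.6 CPM in smoldering lungs, a change of 0.89 (adjusted p = 0.775), and its SD exceeded its mean in both phases. These 2 of 7 had an unadjusted p under 0.05, where 6.27% of all genes did. Of the 16 genes called, 31.2% were higher in flaming lungs, and with DESeq2's size factors 43.8%.

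Within single fuels 1 of 70 tests was called, Gatm in red oak at 24 h, and 0.704% of such tests over all genes were called. Of those 1018 calls, 985 came from the same red oak comparison. Gatm had 12.2, 25.9 and 89.3 CPM in the lowest, median and highest red oak flame lung, against 9.53, 19.3 and 23.2 CPM in red oak smolder lungs. The groups overlapped, with 3 of 6 flame lungs above every smolder lung, and the change was 1.10 (SE 0.37, adjusted p = 0.0485) in a comparison that called 6.81% of genes. The highest of these lungs was the one with 9886 detected genes, in which Acod1 and Arg1 were also the highest of the group and Ass1 was at 0. Without the libraries of few detected genes the change was 0.69 (adjusted p = 1).

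In peat at 24 h, Acod1 and Arg1 were higher in all 6 flame lungs than in any of the 6 smolder lungs. Acod1 had 2.28 to 20.8 CPM in peat flame lungs against 0 to 1.75 CPM in peat smolder lungs, and Arg1 13.5 to 80.5 CPM against 8.76 to 13.4 CPM, a separation seen in this direction in 0.118% of all genes. The log2 changes were 3.18 for Acod1 (SE 1.01, adjusted p = 0.139), 1.54 for Arg1 (SE 0.38, adjusted p = 0.0786), 0.80 for Arg2 (adjusted p = 0.177) and 1.03 for Gatm (adjusted p = 0.169). In edgeR 0 of the 7 were called, where 0.0622% of genes were, and these 4 of 7 had an unadjusted p under 0.05, where 19.3% of all genes did. Arg1 was called by DESeq2 (1.46, adjusted p = 0.0265), and in edgeR without the libraries of few detected genes (1.62, adjusted p = 0.0459).

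A test across all 10 smokes called 0 members at 4 h in edgeR, where 0.609% of genes were called, and DESeq2 called 0. Arg2 alone had an unadjusted p under 0.05 (0.0281, adjusted p = 0.631). At 24 h Arg1 (adjusted p = 0.000652), Acod1 (0.0103), Gatm (0.0128) and Arg2 (0.0488) were called, in a test that called 18% of all genes, while Nos2, Ass1 and Ptgs2 were not. Without the libraries of few detected genes Acod1 and Arg1 remained called, and in a fit of the 24 h libraries alone none did. The median of Arg1 at 24 h was 8.65 CPM in red oak smolder, the lowest, and 24.2 CPM in peat flame, the highest, while the other 8 medians lay between 10.4 and 12.6 CPM.

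Peat flame was also set against LPS at 4 h, with all lungs of both groups on plate 1. Acod1 had 1.45 to 24.7 CPM in peat flame lungs against 347 to 666 CPM in LPS lungs, and Arg2 20.2 to 76.9 CPM against 80.2 to 133.1 CPM. In both genes every peat flame lung was below every LPS lung, a separation seen in this direction in 5.14% of genes. The log2 changes of -5.98 (SE 1.06, adjusted p = 1.64e-05) and -1.57 (SE 0.31, adjusted p = 0.000191) were called, where 4.6% of genes were. Gatm lay the other way, with 13.1 to 18.2 CPM in peat flame lungs and 6.61 to 12.6 CPM in LPS lungs and a change of 0.85 that was not called (adjusted p = 0.353).

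In saline lungs no member was called between 24 h and 4 h by edgeR, where 0% of genes were called and 7.13% had an unadjusted p under 0.05, and DESeq2 called 0 members. The count of members at an unadjusted p under 0.05 was 0. Ptgs2 averaged 17.2 ± 9.57 CPM at 24 h and 35.6 ± 13.9 CPM at 4 h, a change of -0.98 (interval -2.05 to 0.09), and the other 6 changes lay between -0.42 and 0.39.

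The number of genes detected in a library went along with the level of several members at 24 h. In the 6 lungs with fewer than 13000 detected genes, Gatm was above all other lungs of its group in 5 and Nos2 in 4, while Ptgs2 was below all others in 5 and Ass1 in 4. In the red oak flame lung with 9886 detected genes Gatm was at 89.3 CPM and Ptgs2 at 0.72 CPM, and in the eucalyptus flame lung with 10172 they were at 96.3 and 0 CPM. A saline lung of 24 h with 13196 detected genes was likewise highest of its group in Gatm (56.3 CPM) and lowest in Ass1 (7 CPM) and Ptgs2 (8.25 CPM). The 4 LPS lungs of 24 h had 14335 to 15290 detected genes. The part of detection in these levels was not tested.

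**Figure D5:**
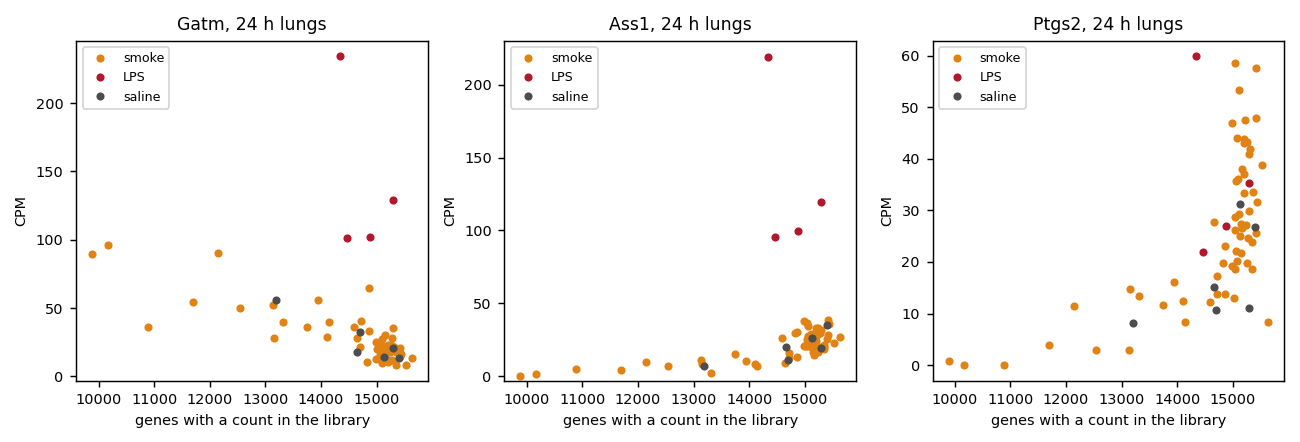
CPM of Gatm, Ass1 and Ptgs2 in 24 h lungs against the number of genes with a count in the library, 1 point per animal, with smoke, LPS and saline lungs marked. Smoke lungs with few detected genes tend to be high in Gatm and low in Ass1 and Ptgs2, and the LPS lungs have 14335 or more detected genes.

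Across the 24 lung groups the members fell into different orders by mean. Acod1 was highest in LPS at 24 h (2350 ± 1490 CPM, SD), then LPS at 4 h (471 CPM, range 347 to 666), and then eucalyptus flame (23.6 ± 49.7 CPM), pine needles smolder (10.6 ± 23.7 CPM) and peat flame (10.2 ± 6.61 CPM) at 24 h, which overlap in their spread. Nos2 was highest in LPS at 24 h (611 ± 590.3 CPM), followed at a distance by peat flame at 24 h (22.4 ± 10.2 CPM) and saline at 24 h (15.6 ± 3.65 CPM), which overlap, and the other groups lay between 7.56 and 15 CPM. Arg1 was led by LPS at 24 h (61.8 ± 23.5 CPM), peat flame at 24 h (31.7 ± 24.3 CPM) and eucalyptus flame at 24 h (22.6 ± 22.9 CPM), all overlapping with a neighbour, and LPS at 4 h (8.13 ± 3.99 CPM) was lowest.

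Arg2 was highest in LPS at 4 h (107.9 ± 28.1 CPM) and LPS at 24 h (89.5 ± 31.7 CPM), which overlap, and then in peat flame at 4 h (36.3 ± 21.5 CPM) and at 24 h (24.1 ± 5.82 CPM), and it was lowest in saline at 24 h (11.2 ± 2.98 CPM). Ass1 was led by LPS at 24 h (133.4 ± 58.2 CPM) and LPS at 4 h (45.3 ± 15.9 CPM), with the other 22 groups between 16.1 and 30.9 CPM. For Ptgs2 the leading groups overlapped, from LPS at 4 h (74.2 ± 30.8 CPM) to red oak smolder at 4 h (55.7 ± 21.8 CPM) and peat smolder at 4 h (45.7 ± 12.8 CPM), and saline at 24 h (17.2 ± 9.57 CPM) was lowest. Gatm was highest in LPS at 24 h (142 ± 63.1 CPM) and lowest in LPS at 4 h (9.14 ± 2.51 CPM), with peat flame (43.9 ± 27.9 CPM) and red oak flame (37.3 ± 29.9 CPM) at 24 h next to the top.

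As a description over the 24 group means of log2(CPM + 1), the gene most like each member was Ccl4 for Acod1 (Pearson r = 0.984), Aif1 for Nos2 (0.961), Vdr for Arg1 (0.924), Il4i1 for Arg2 (0.969), Rnf19b for Ass1 (0.951), D10Wsu102e for Ptgs2 (0.913) and Slc16a3 for Gatm (0.926). The next were Slc2a6 and Gbp2 for Acod1, Plau and Pycard for Nos2, Ola1 and Aif1 for Arg1, and Cxcl2 and Il1f9 for Arg2. For Ass1 Abr followed, for Ptgs2 they were Ceacam1 and Nop58, and for Gatm Cd74 and Tmsb10. Over the 22 groups without LPS the closest genes were Timp1 for Acod1 (0.788), Phf13 for Nos2 (0.919), Mrpl32 for Arg1 (0.84), Cxcl1 for Arg2 (0.871), Clint1 for Ass1 (0.922), Slc7a6 for Ptgs2 (0.922) and Pole for Gatm (0.928). Arg2 had Cxcl2 and Il4i1 among its closest 3 in both sets of groups, and the other members had no gene in both.

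Among themselves the group means of Acod1 and Arg2 went together over the 24 groups (r = 0.91), as did those of Nos2 and Gatm (0.87) and of Arg1 and Gatm (0.88). Without the LPS groups Acod1 and Arg2 had an r of 0.58 over 22 groups, Nos2 and Gatm 0.79, and Ass1 and Ptgs2 0.78, while Gatm ran against Ass1 (-0.78) and Ptgs2 (-0.67). The genes of a group are read in the same libraries, and so share plate and detection, the last of which moved with Gatm, Ass1 and Ptgs2 in the lungs described above.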

How the data were processed

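RNA of whole lungs and hearts was measured by a targeted assay, and the 140 lung libraries were used. The authors deposited raw counts of reads per probe, 30146 rows in 170 libraries. Per the labels' protocols the TempO-Seq platform was used, with a 3' library kit also named, read single-end on an Illumina HiSeq. Bowtie and DESeq2 are named in the submitters' processing notes, with versions and genome build not given in the sources used here. How probes were aligned can set how reads of similar genes are shared.

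Probe counts were summed per symbol. A model with a term for each lung group and for the plate was fitted to all lung libraries with edgeR 4.0.16 (TMM scaling, quasi-likelihood F test) in R 4.3.3, and p-values were Benjamini-Hochberg adjusted over the 14458 genes left by its filter on low counts. An SE is the log2 change divided by the root of the F statistic. CPM values carry the TMM factors. DESeq2 1.42.0, its size factors, no filter, no plate term, 1 time or 1 plate alone, single probes, leaving out libraries under 13000 detected genes and leaving out single lungs were tried as alternatives. The single lungs left out were saline and LPS lungs of both times and peat flame and eucalyptus flame lungs of 4 h. Counts simulated from the 4 h lungs were also fitted, by edgeR over the 4 h lungs and by DESeq2 over the LPS and saline lungs of 4 h. The model over the lungs of both times was not tested in this way. Totals of 4426180 to 8046021 counts make 1 CPM a few counts, so low values are imprecise.

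Groups were taken from the labels, and replicate numbers only name libraries. The numbers say nothing of shared litters or days, and p-values measure the spread between the labelled animals. No pair of libraries of a group held identical values: at least 13635 genes differed. The 7 members and all gene lists were chosen with earlier results of these data known. All 7 members were named throughout, and of each list at most 5 called genes with the smallest p per comparison. For likeness the 3 genes with the highest correlation were named, among genes with a highest group mean of at least 5 CPM, with clone and model names skipped. A gene that these rules name is not reported here. Idh2, the genes that only DESeq2 called under peat flame, and the marker genes Marco and Fabp1 were chosen after their values were seen. Promoter sequences came from RefSeq (GRCm38.p6) and positions from GENCODE M21.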

Additional observations from a re-analysis of the deposited data

Results flagged for a closer look

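Of 168 sets of lungs, 1 for each member in each of the 24 groups, 23 held a lung whose gap to the nearest other lung, as a share of the group's range, passed Dixon's 95% limit. For normally distributed values that limit is passed in about 1 in 20 groups. Whether CPM values follow that distribution was not tested, and the 168 sets share libraries. The number to be expected here is therefore not known. In LPS lungs of 24 h, replicate 2 stood far above the rest in Nos2 at 1500 CPM and in Arg1 at 96.8 CPM. Saline lungs of 4 h held 1 such lung, replicate 1 at 28.1 CPM of Nos2.

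Under peat flame the lungs far above their group were replicate 3 in Arg2 (76.9 CPM) and replicate 4 in Ptgs2 (76.2 CPM) at 4 h, and replicate 5 in Arg1 (80.5 CPM) and replicate 6 in Ptgs2 (57.6 CPM) at 24 h. Eucalyptus flame held replicate 3 of 4 h in Arg1 (25.8 CPM) and Gatm (31.8 CPM), and at 24 h replicate 1 in Acod1 (124.8 CPM) and Arg1 (66.6 CPM) and replicate 5 in Gatm (96.3 CPM). Pine needles smolder of 24 h held replicate 6 in Acod1 (58.9 CPM) and Nos2 (37.6 CPM) and replicate 5 in Arg2 (26.1 CPM).

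Pine flame of 24 h had its replicate 6 apart in Arg2 (42.6 CPM) and Gatm (49.9 CPM), and red oak flame of 24 h its replicate 6 in Acod1 (19.4 CPM) and Arg1 (30.9 CPM). Replicate 6 of pine flame had 12545 detected genes and replicate 6 of red oak flame 9886. Single lungs also stood apart in pine smolder of 4 h (replicate 2, Acod1 12.5 CPM), eucalyptus smolder of 4 h (replicate 3, Nos2 11.4 CPM) and peat smolder of 4 h (replicate 6, Gatm 46.2 CPM). In peat smolder of 24 h replicate 3 lay apart below the rest, at 0 CPM of Acod1.

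The effect of LPS at 24 h minus that at 4 h, on the log2 scale, was called in the interaction test for Nos2 (4.97), Arg1 (2.75) and Gatm (3.46). In Gatm all LPS lungs were above all saline lungs at 24 h and below them at 4 h.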

How the results depend on the processing

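No paired analysis was possible because each lung library came from a separate animal and the replicate numbers were given in accession order. Over 55 changes of single members and their 747 alternative values, 717 kept their direction and their side of the threshold, 15 lost and 14 gained a call, and 1 changed sign. That was Acod1 in eucalyptus flaming against smoldering at 24 h, at 2.40 over all libraries and -0.10 on plate 2 alone, which leaves out the lung at 124.8 CPM. Only 15 of the 55 changes were called over all libraries, and 244 of their 259 alternative values kept the call. The 15 losses fell on Arg2 under peat flame at 4 h, Gatm in red oak at 24 h and the Arg1 difference between times under LPS.

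The number of members called under LPS at 4 h was 2, and 4 with the 4 h libraries alone and 4 on plate 1, with 2 to 3 when single lungs were left out. It was 6 at 24 h under each setting tried, and the difference between the times gave 2 to 3 with single lungs left out. Between flaming and smoldering lungs at 4 h it was 1 without the plate term, against 0. It was also 1 without libraries of few detected genes, which are all 24 h lungs. Among the 10 smokes at 24 h it was 2 without those libraries and 0 with the 24 h libraries alone, against 4.

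For single smokes against saline at 4 h it was 0 with no filter on low counts and 2 with the 4 h libraries alone, against 1, and 0 to 1 with single saline lungs left out. At 24 h it was 1 by DESeq2, against 0, and 0 to 1 with single saline lungs left out. Within fuels it was 2 by DESeq2 and 0 with no filter, 0 without the plate term and 0 with 1 time alone, against 1. The cause of these changes was not tested.

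The number of all genes called moved more. It was 1298 under LPS at 4 h, and between 1143 and 2416 over the alternatives, the most with the 4 h libraries alone. Under LPS at 24 h it was 1748, and between 713 on plate 2 alone and 2646 without libraries of few detected genes, or 986 without LPS replicate 2. For the difference between these times it was 84, and up to 236 over the alternatives. Under peat flame it was 43 at 4 h (37 with no filter and 82 by DESeq2, and 2.81 times as many on plate 1 alone) and 10 (1 to 19) at 24 h, with 3 to 9 when single saline lungs were left out. Between phases at 4 h it was 345 (up to 1564), among the 10 smokes 88 (up to 608) at 4 h and 2607 (down to 90 with the 24 h libraries alone) at 24 h. DESeq2's size factors moved the median log2 change of all genes by -0.12 under pine needles flame at 4 h. At 24 h the shift was 0.15 under red oak smolder and 0.18 under pine needles flame. Between flaming and smoldering pine needles it was -0.17 at 4 h and 0.18 at 24 h. Under red oak flame at 24 h these size factors gave 644 called genes, against 253. Low levels limit Acod1 in particular, since 1 CPM was about 6.59 counts at the median depth.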
